A study of Rattus norvegicus with 6 samples.

Results

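Neurexins, neuroligins and Cadm proteins are adhesion molecules of synapses and of contacts between axons and glia. The 8 genes described here, Nrxn2, Nrxn3, Nlgn1, Nlgn3, Cadm1, Cadm2, Cadm3 and Cadm4, were chosen by symbol among the 30560 genes of a single-nucleus RNA data set of rat brain, and each matched 1 gene entry. Nuclei of male Wistar rats, aged 12 weeks, were collected 48 h after occlusion of the middle cerebral artery (MCAO) or a Sham operation. They were pooled into 6 libraries of 1 hemisphere each, which form 3 groups of 2. Sham holds both hemispheres of 4 Sham rats, the left as Sham L and the right as Sham R. MCAO ipsi holds the infarcted hemispheres, 1 library from 3 rats with moderate infarctions (mMCAO ipsi) and 1 from 4 rats with severe infarctions (sMCAO ipsi), and MCAO contra holds the opposite hemispheres of those rats (mMCAO contra and sMCAO contra). The 2 libraries of a group are therefore not independent animals of 1 condition, and p-values measure only the spread between such libraries.

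Neurexins sit mainly on the presynaptic membrane and bind postsynaptic neuroligins across the synaptic cleft, where the pair helps to set up and specify transmission. Cadm proteins (also called SynCAM or nectin-like) have immunoglobulin domains and bind each other within and across cell types. Cadm1 and Cadm2 occur at synapses, Cadm3 is known as an axonal protein, and Cadm4 is a glial partner of axonal Cadm proteins in myelinating cells. Glia use the same genes, and neuroligins are known in astrocytes and in oligodendrocyte precursor cells (OPCs).

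The 6 libraries held 33012945 to 52513380 UMIs (unique molecules counted) each, and 73649 of 73826 nuclei met the study's limits on depth, genes and mitochondrial RNA. Between 118 and 281 cell barcodes were shared by a pair of libraries. Nuclei were assigned by UMIs of marker genes to 6 classes, and none of the 8 genes was used. The classes held 19047 glutamatergic neuron-like, 7649 medium spiny neuron-like, 2793 GABAergic interneuron-like, 1319 OPC-like, 7623 oligodendrocyte-like and 2123 astrocyte-like nuclei. The smallest class in a library was 70 OPC-like nuclei in Sham R. The glial marker lists set the gates, so their levels describe the classes and are no independent check of them. OPC markers were at 5064 to 6568 UMIs per 1000000 UMIs (CPM) in OPC-like nuclei against 95 to 394 CPM in the other glia. Oligodendrocyte markers were at 11385 to 14728 CPM in oligodendrocyte-like nuclei, and astrocyte markers at 12395 to 14333 CPM in astrocyte-like nuclei. Markers of ependymal cells summed to 0 to 197 CPM in astrocyte-like nuclei, highest in sMCAO ipsi. Neuron lists were less specific. Glutamatergic markers were at 1110 to 1403 CPM in their class. Medium spiny markers with Pde10a were at 470 to 1472 CPM there and 5300 to 7169 CPM in their own class. Gad1, Gad2 and Slc32a1 were at 886 to 1321 CPM in interneuron-like and 442 to 642 CPM in medium spiny neuron-like nuclei. Adarb2, Vip, Lamp5 and Htr3a were at 3364 to 4508 CPM in interneuron-like and 2987 to 4570 CPM in OPC-like nuclei. All levels below are CPM of the UMIs summed over a class in a library, and since transcript length was not taken into account, levels are compared between classes and libraries and not between genes.

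Among the neurexins, Nrxn3 was a neuronal and Nrxn2 an OPC-leading transcript. Nrxn3 was highest in GABAergic interneuron-like nuclei (9575 to 12350 CPM over the 6 libraries) and medium spiny neuron-like nuclei (9647 to 10690 CPM), followed by glutamatergic neuron-like nuclei (6310 to 7233 CPM). The order of the first pair was not the same in every library. Glia lay below neurons, with Nrxn3 at 2805 to 5340 CPM in OPC-like, 1955 to 3961 CPM in astrocyte-like and 533 to 2752 CPM in oligodendrocyte-like nuclei. Nrxn2 was highest in OPC-like nuclei in all 6 libraries, at 214 to 573 CPM, against 114 to 185 CPM in GABAergic interneuron-like, 78.1 to 130 CPM in glutamatergic neuron-like and 67.9 to 93.2 CPM in medium spiny neuron-like nuclei. The mean difference between OPC-like and interneuron-like nuclei was 1.32 ± 0.38 on the log2 scale (SD, n = 6 libraries, 1 CPM added).

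The neuroligins were shared between neurons and glia. Nlgn1, which codes for the neuroligin typical of excitatory synapses, was at 5162 to 5667 CPM in medium spiny neuron-like, 3673 to 5735 CPM in OPC-like and 3874 to 4379 CPM in glutamatergic neuron-like nuclei. Neighbours in this order did not differ the same way in all 6 libraries. Medium spiny neuron-like nuclei lay above OPC-like nuclei in 4 of 6, and OPC-like above glutamatergic neuron-like nuclei in 5 of 6. OPC-like nuclei held most Nlgn1 in mMCAO contra and sMCAO contra. Astrocyte-like nuclei (2431 to 3506 CPM) and GABAergic interneuron-like nuclei (2691 to 3557 CPM) followed, and oligodendrocyte-like nuclei were lowest at 711 to 1764 CPM. Nlgn3 was a low transcript throughout, at 45 to 88.7 CPM in OPC-like and 28.5 to 97.8 CPM in astrocyte-like nuclei against 20.95 to 35.8 CPM across the 3 neuron classes. It rested on 4 to 57 UMIs per library in OPC-like nuclei, and neighbouring classes among the first 5 were not separated. OPC-like nuclei lay above each of the 3 neuron classes in all 6 libraries. Oligodendrocyte-like nuclei held 11.2 to 19.6 CPM of Nlgn3, below glutamatergic neuron-like nuclei in 6 of 6 libraries.

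The leading class by the mean over libraries was astrocyte-like for Cadm1, glutamatergic neuron-like for Cadm2 and Cadm3 and oligodendrocyte-like for Cadm4. Cadm1 was highest in astrocyte-like nuclei, at 1128 to 2320 CPM, and lay between 468 and 969 CPM in the other 5 classes, whose neighbours in the order were not separated. Cadm2 was at 5152 to 5566 CPM in glutamatergic neuron-like nuclei, with medium spiny neuron-like (4134 to 5121 CPM) and astrocyte-like nuclei (3306 to 5919 CPM) close to it. Astrocyte-like nuclei held most Cadm2 in Sham L, Sham R and mMCAO contra, and glutamatergic neuron-like nuclei in the other 3 libraries. OPC-like nuclei (2855 to 4851 CPM) and interneuron-like nuclei (3064 to 4400 CPM) were not separated, and oligodendrocyte-like nuclei (2160 to 3216 CPM) were lowest. Cadm3 was highest in glutamatergic (81.2 to 111 CPM) and GABAergic interneuron-like nuclei (69.8 to 91.4 CPM) and reached only 3.63 to 44.7 CPM in oligodendrocyte-like nuclei. Cadm4 was at 101 to 128 CPM in oligodendrocyte-like, 58.5 to 92.2 CPM in OPC-like and 20.1 to 34.3 CPM in medium spiny neuron-like nuclei, the lowest class, and its lead in oligodendrocyte-like nuclei held in 6 of 6 libraries.

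**Figure D1:**
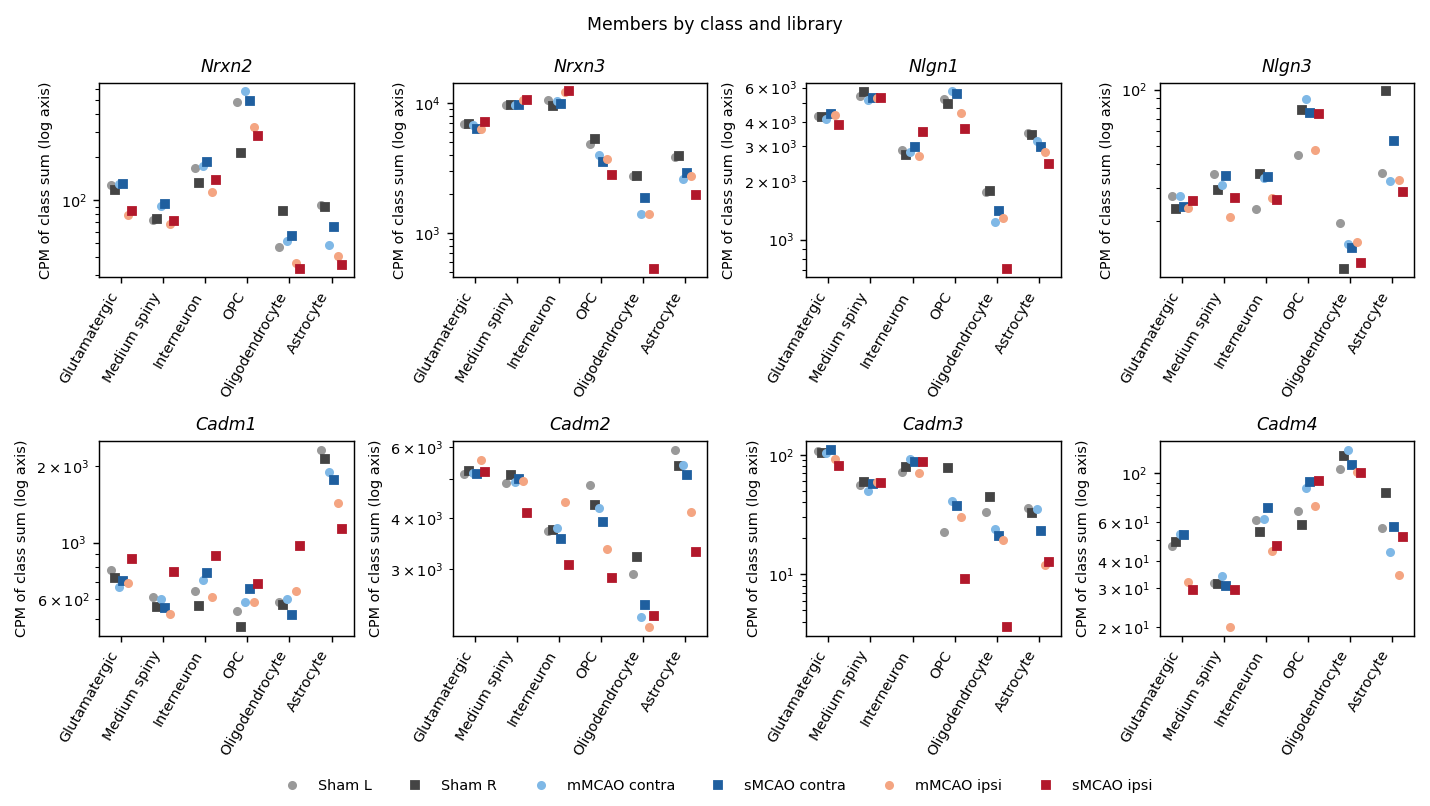
CPM of each gene (log axis, a panel per gene) in the class sums of each library, with a colour and symbol per library. Nrxn2 peaks in OPC-like nuclei at 214 to 573 CPM, Cadm1 in astrocyte-like nuclei at 1128 to 2320 CPM and Cadm4 in oligodendrocyte-like nuclei at 101 to 128 CPM.

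Of the 40 pairs of neighbouring classes (5 for each gene), 18 differed the same way in all 6 libraries. For those, the exact two-sided paired sign-flip permutation test gave p = 0.03125, the smallest that 6 libraries allow, and 0.0694 after Benjamini-Hochberg adjustment over the 40 pairs, so no pair passed 0.05 after adjustment. The libraries share rats, which this test does not take into account.

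Glial nuclei also held RNA of neuronal genes, called background here, and its level moved with the groups. It was measured with 9 neuronal genes outside the marker lists (such as Ryr2, Camk4 and Grin2a), as the median of their CPM in a glial class divided by their CPM in all neuron-like nuclei of the library. The ratio was 25.9% to 30.0% in oligodendrocyte-like nuclei of Sham, 17.3% to 21.9% in MCAO contra and 5.68% to 13.5% in MCAO ipsi. In astrocyte-like nuclei it was 28.7% to 31.1% in Sham, 19.9% to 27.0% in MCAO contra and 5.27% to 12.8% in MCAO ipsi. In OPC-like nuclei it was 38.6% to 42.4% in Sham, 36% to 39.6% in MCAO contra and 11% to 19.5% in MCAO ipsi. Single genes varied around the median. Kcnq5, a potassium channel gene of the check list, was at 1501 to 1564 CPM in OPC-like nuclei of Sham and at 2239 and 3012 CPM in those of MCAO ipsi, where it did not follow the other check genes. Whether the higher ratio in OPC-like nuclei came from free RNA or from expression in OPCs was not tested. Values after subtraction in OPC-like nuclei carry the same limit.

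Compared with the level that this background would give, Nrxn3 in oligodendrocyte-like nuclei was at 1.04 to 1.32 times the estimate in the 6 libraries. Cadm3 was at 0.833 to 1.90 times in oligodendrocyte-like, 0.853 to 3.15 times in astrocyte-like and 0.6 to 2.02 times in OPC-like nuclei. Expression of their own and background cannot be told apart for either gene in oligodendrocyte-like nuclei, nor for Cadm3 in astrocyte-like and OPC-like nuclei. Apart from Cadm3, the other 21 pairs of gene and glial class lay above the estimate in all 6 libraries. The estimate is a median of check genes that scattered widely. In sMCAO ipsi their ratios ran from 0.027 to 0.9411 in oligodendrocyte-like nuclei (median 0.0568). In OPC-like nuclei of that library they ran from 0.0 to 1.4529 (median 0.11). Whether a gene a few times above the estimate has expression of its own was not tested. Near the estimate in some libraries were Nrxn3 in OPC-like (1.17 to 2.90 times) and astrocyte-like nuclei (1.41 to 4.22 times), Nlgn1 in oligodendrocyte-like nuclei (1.44 to 3.10 times) and Nrxn2 in oligodendrocyte-like (1.23 to 5.94 times) and astrocyte-like nuclei (1.82 to 6.79 times). Further above it stood Cadm1 in astrocyte-like nuclei (9.01 to 24.7 times) and Cadm4 in oligodendrocyte-like nuclei (7.52 to 51.3 times). Nrxn2 was at 4.43 to 25.9 times in OPC-like nuclei. Nlgn3 was at 4.04 to 28.0 times in OPC-like and 4.36 to 22.6 times in astrocyte-like nuclei. The lower ends in OPC-like nuclei lay within the scatter of the check genes, such as Nefm in Sham R (ratio 2.7809, median 0.4242). Nlgn1 was at 2.84 to 8.26 times in OPC-like and 2.66 to 11.4 times in astrocyte-like nuclei, and Cadm2 at 2.03 to 14.4 times over the 3 glial classes. Cadm1 was at 1.58 to 7.23 times in OPC-like and 2.69 to 19.7 times in oligodendrocyte-like nuclei, Cadm4 at 2.88 to 24.3 times in OPC-like and 4.04 to 28.3 times in astrocyte-like nuclei, and Nlgn3 at 1.71 to 8.75 times in oligodendrocyte-like nuclei.

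**Figure D2:**
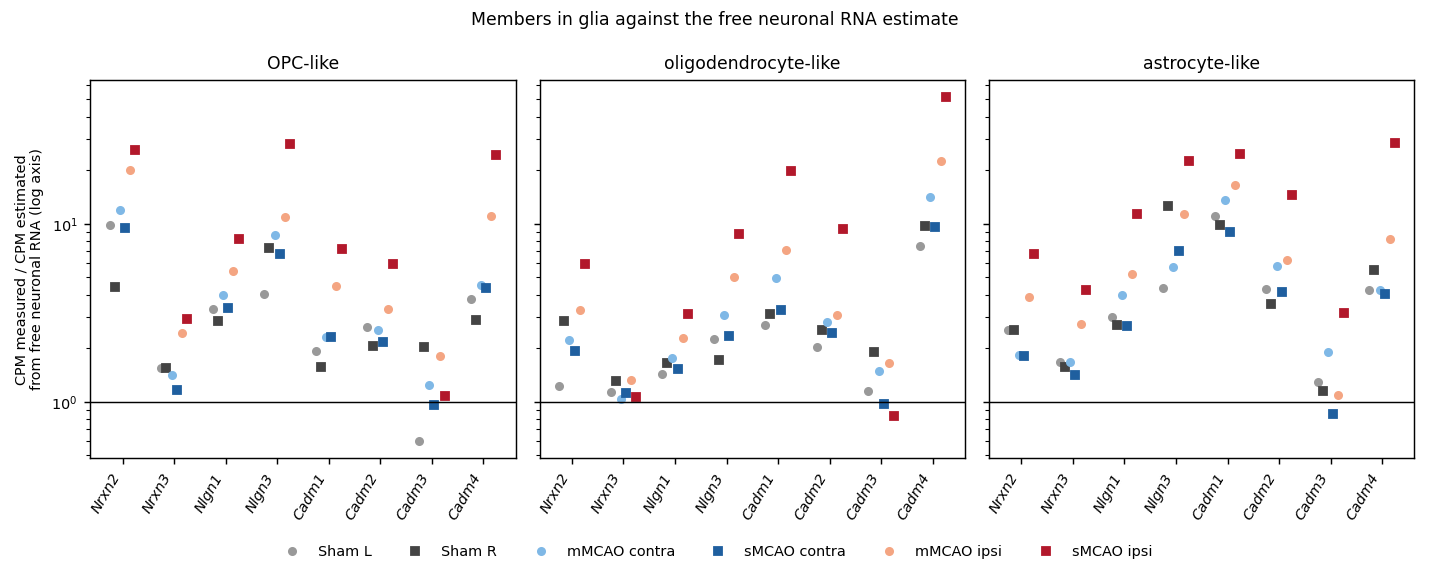
CPM measured in a glial class divided by the CPM estimated from free neuronal RNA (log axis), for each gene, glial class and library, with a line at 1. Nrxn3 in oligodendrocyte-like nuclei lies on the line at 1.04 to 1.32, while Cadm4 there lies at 7.52 to 51.3 and Cadm1 in astrocyte-like nuclei at 9.01 to 24.7.

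The comparison of MCAO ipsi with Sham asks how the infarcted hemisphere differs from the brain of Sham-operated rats. Of 48 pairs of gene and class, 9 were lower in MCAO ipsi and none was higher. The test was edgeR's quasi-likelihood F test, with p adjusted after Benjamini and Hochberg over every gene tested in a class, and a pair was called where the adjusted p lay under 0.05 and the log2 fold change was 0.6 or more in either direction. They were Nrxn2 and Cadm4 in glutamatergic neuron-like nuclei, Nrxn2, Nrxn3, Cadm1 and Cadm2 in astrocyte-like nuclei, Nrxn3 and Cadm2 in OPC-like nuclei and Nrxn3 in oligodendrocyte-like nuclei. Of all genes tested, 7.19% were called in glutamatergic, 5.92% in medium spiny and 0.512% in GABAergic interneuron-like nuclei, and 6.51% in OPC-like, 6.25% in oligodendrocyte-like and 17.0% in astrocyte-like nuclei. Of 8 members, 2 were called in glutamatergic neuron-like and 4 in astrocyte-like nuclei. OPC-like nuclei had 2 and oligodendrocyte-like nuclei 1, with 0 in both other neuron classes, where 4 and 2 had an unadjusted p under 0.05 and DESeq2 called 0. At that p, 1448 genes rose and 1465 fell of the 11954 tested in medium spiny neuron-like nuclei. In interneuron-like nuclei 745 rose and 603 fell of 10557. The count of 9 rested on single libraries, and was 0 without Sham L, 3 without Sham R, 5 without mMCAO contra, 4 without sMCAO contra and 14 without mMCAO ipsi.

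In glutamatergic neuron-like nuclei, both hemispheres with infarctions stood apart from the other 4 libraries for Nrxn2 and Cadm4. Nrxn2 was at 127 and 117 CPM in Sham L and Sham R, 130 and 128.5 CPM in mMCAO contra and sMCAO contra, and 78.1 and 83.2 CPM in mMCAO ipsi and sMCAO ipsi. It fell by 0.72 ± 0.08 on the log2 scale (SE, adjusted p = 0.00343), which is 1.64-fold. Cadm4 was at 46.8 and 48.5 CPM in Sham, 53.0 and 52.7 CPM in MCAO contra and 32.0 and 29.6 CPM in MCAO ipsi. It fell by 0.73 ± 0.09 (SE, adjusted p = 0.00493), which is 1.66-fold. The groups did not overlap for either gene. Median depth was 4520 and 3301 UMIs per nucleus in Sham, 5110 and 4307 in MCAO contra and 5048 and 8825.5 in MCAO ipsi. These nuclei numbered 3728 and 3325 in Sham, 4160 and 2733 in MCAO contra and 3939 and 1162 in MCAO ipsi. The study found neuronal clusters depleted in severely infarcted tissue. The part of depth and of the make-up of the class in both falls was not tested.

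Both falls kept their size when any 1 library was left out, with log2 fold changes of -0.79 to -0.64 for Nrxn2 and -0.84 to -0.64 for Cadm4. The call of Nrxn2 was lost without Sham L (adjusted p = 0.0888), and that of Cadm4 without Sham L or Sham R (adjusted p up to 0.105). The other members of these nuclei moved by less. Cadm3, with a log2 fold change of -0.38 ± 0.10 (SE), passed the adjusted p (0.0393) but not the fold, and Nlgn1, Nlgn3, Nrxn3, Cadm1 and Cadm2 had values of -0.17 to -0.06 with adjusted p of 0.329 or more.

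No member was called in medium spiny or GABAergic interneuron-like nuclei. Nrxn2 in interneuron-like nuclei was at 167 and 130 CPM in Sham and 114 and 138 CPM in MCAO ipsi, and its libraries overlapped between the groups. Nlgn3 in medium spiny neuron-like nuclei was at 35.8 and 29.2 CPM in Sham and 20.95 and 26.4 CPM in MCAO ipsi, with a log2 fold change of -0.56 ± 0.16 (SE) and an adjusted p of 0.0366 that passed without the size of change required. Nrxn3, the neurexin with most UMIs in these classes, had log2 fold changes of 0.02 ± 0.06 (SE) in medium spiny and 0.24 ± 0.13 (SE) in interneuron-like nuclei, with adjusted p of 0.857 and 0.472.

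In astrocyte-like nuclei all 8 log2 fold changes were below 0, with a median of -0.86 against 0.031 over all genes tested. Depth separated the groups too, with medians of 765.5 and 602.5 UMIs per nucleus in Sham and 1262.5 and 2277.5 in MCAO ipsi. The study found its reactive astrocyte clusters nearly missing in Sham and abundant in infarcted hemispheres. The part of depth and of the make-up of the class in these changes was not tested. Cadm1 was at 2320 and 2135 CPM in Sham L and Sham R, 1891 and 1761 CPM in mMCAO contra and sMCAO contra, and 1433 and 1128 CPM in mMCAO ipsi and sMCAO ipsi. The 3 groups did not overlap, and the fall from Sham was 0.89 ± 0.19 on the log2 scale (SE, adjusted p = 0.00585), or 1.86-fold. With the free neuronal RNA subtracted the fall was 1.15 (adjusted p = 0.00502). Over the fits without 1 library the log2 fold change ran from -1.08 to -0.68, and the call was lost without Sham L (adjusted p = 0.127) and where the limit on neuron markers in the gate was dropped (-0.58, adjusted p = 0.132).

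Cadm2 in astrocyte-like nuclei was at 5919 and 5387 CPM in Sham, 5414 and 5131 CPM in MCAO contra and 4141 and 3306 CPM in MCAO ipsi, so that the libraries of MCAO ipsi lay below the other 4. It fell by 0.69 ± 0.20 (SE, adjusted p = 0.0281) and by 0.78 after subtraction of free RNA (adjusted p = 0.0244). The call was lost in 5 of 6 fits without 1 library (all but that without mMCAO ipsi), with log2 fold changes of -0.87 to -0.50 and adjusted p up to 0.285. It was also lost with only the 4 libraries compared (adjusted p = 0.097) and without the limit on neuron markers (adjusted p = 0.176). Nrxn3 was at 3892 and 3961 CPM in Sham and 2768 and 1955 CPM in MCAO ipsi, with 2627 and 2886 CPM in MCAO contra between them or level with mMCAO ipsi. Its fall of 0.82 ± 0.21 (SE, adjusted p = 0.0142) was 0.31 after subtraction (adjusted p = 0.358), and was not called without Sham L, Sham R, sMCAO contra or sMCAO ipsi (-1.10 to -0.55, adjusted p up to 0.157). It was not called either without the deepest nuclei (adjusted p = 0.0627) or without the limit on neuron markers (adjusted p = 0.056).

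Nrxn2 in astrocyte-like nuclei rested on 11 to 58 UMIs per library. It was at 92.8 and 89.6 CPM in Sham, 48.8 and 64.8 CPM in MCAO contra and 40.6 and 35.2 CPM in MCAO ipsi, a fall of 1.38 ± 0.34 (SE, adjusted p = 0.0123). It was 1.36 after subtraction of free RNA (adjusted p = 0.0806), and the call was also lost with DESeq2 (-1.39, adjusted p = 0.0607), without the deepest 5% of nuclei (-1.26, adjusted p = 0.0711) and without Sham L or Sham R (-1.47 to -1.21, adjusted p up to 0.178). Nlgn1 and Nlgn3 had log2 fold changes of -0.49 ± 0.19 and -1.11 ± 0.48 (SE) that were not called, with adjusted p of 0.0895 and 0.137. Markers of neurons (Rbfox3, Snap25 and Syt1) in astrocyte-like nuclei moved the same way as these genes, from 1464 and 1442 CPM in Sham to 497 and 188 CPM in MCAO ipsi. The part of neuronal RNA and of ependymal markers in the changes of single genes was not tested beyond the subtraction.

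In OPC-like nuclei Nrxn3 was at 4862 and 5340 CPM in Sham, 4018 and 3523 CPM in MCAO contra and 3731 and 2805 CPM in MCAO ipsi. It fell by 0.70 ± 0.18 (SE, adjusted p = 0.0195), and by 0.22 after subtraction of free RNA (adjusted p = 0.779). Cadm2 was at 4851 and 4307 CPM in Sham, 4250 and 3925 CPM in MCAO contra and 3370 and 2855 CPM in MCAO ipsi. It fell by 0.63 ± 0.17 (SE, adjusted p = 0.0278), and by 0.54 after subtraction (adjusted p = 0.204). For both genes the libraries of MCAO ipsi lay below those of Sham, but the call held in only 1 of 6 fits without a library (that without mMCAO ipsi), with log2 fold changes of -0.89 to -0.44 for Nrxn3 and -0.73 to -0.40 for Cadm2 and adjusted p up to 0.318 and 0.445. Both calls were also lost with no filter on low counts, with only the 4 libraries compared, with the stricter gate and without the deepest 5% of nuclei, over log2 fold changes of -0.69 to -0.51 for Nrxn3 and -0.62 to -0.37 for Cadm2 (adjusted p up to 0.137 and 0.459). OPC-like nuclei numbered 99 and 70 in Sham against 360 and 359 in MCAO ipsi. Their median depth was 809 and 634 UMIs in Sham against 981.5 and 1849 in MCAO ipsi.

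In oligodendrocyte-like nuclei Nrxn3 was at 2752 and 2741 CPM in Sham, 1414 and 1853 CPM in MCAO contra and 1405 and 533 CPM in MCAO ipsi. The fall of 1.55 ± 0.36 (SE, adjusted p = 0.0403) went along with the background ratio of the neuronal check genes in the same libraries, given above. After subtraction 33.5 to 640 CPM were left and the change was not called (-1.67, adjusted p = 0.467). It was not called either without Sham L, Sham R, mMCAO contra or sMCAO contra (-2.40 to -1.01 over the 6 fits, adjusted p up to 0.252), with only the 4 libraries compared (adjusted p = 0.105) or with the stricter gate (adjusted p = 0.0579). Cadm4, the glial member with the clearest excess over background in these nuclei, was at 105 and 120 CPM in Sham, 128 and 110 CPM in MCAO contra and 101 and 101 CPM in MCAO ipsi, and its log2 fold change of -0.17 ± 0.17 (SE) was not called (adjusted p = 0.621). Cadm1 was at 587.5 and 567 CPM in Sham and 648 and 969 CPM in MCAO ipsi, higher in both infarcted hemispheres. Its log2 fold change of 0.46 ± 0.20 (SE) was not called (adjusted p = 0.219). With severe infarctions Cadm1 was at 1.87 times the opposite hemisphere (Poisson interval of counting error 1.71 to 2.05). With moderate infarctions it was at 1.08 times (0.98 to 1.19), which is no difference beyond counting error. The study found Cadm1 enriched in a mature oligodendrocyte cluster that came mostly from infarcted tissue. That cluster was more abundant in severe lesions. Median depth of oligodendrocyte-like nuclei was 657 and 646 UMIs in Sham and 708 and 1129 in MCAO ipsi. The part of depth and of the make-up of the class was not tested.

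**Figure D3:**
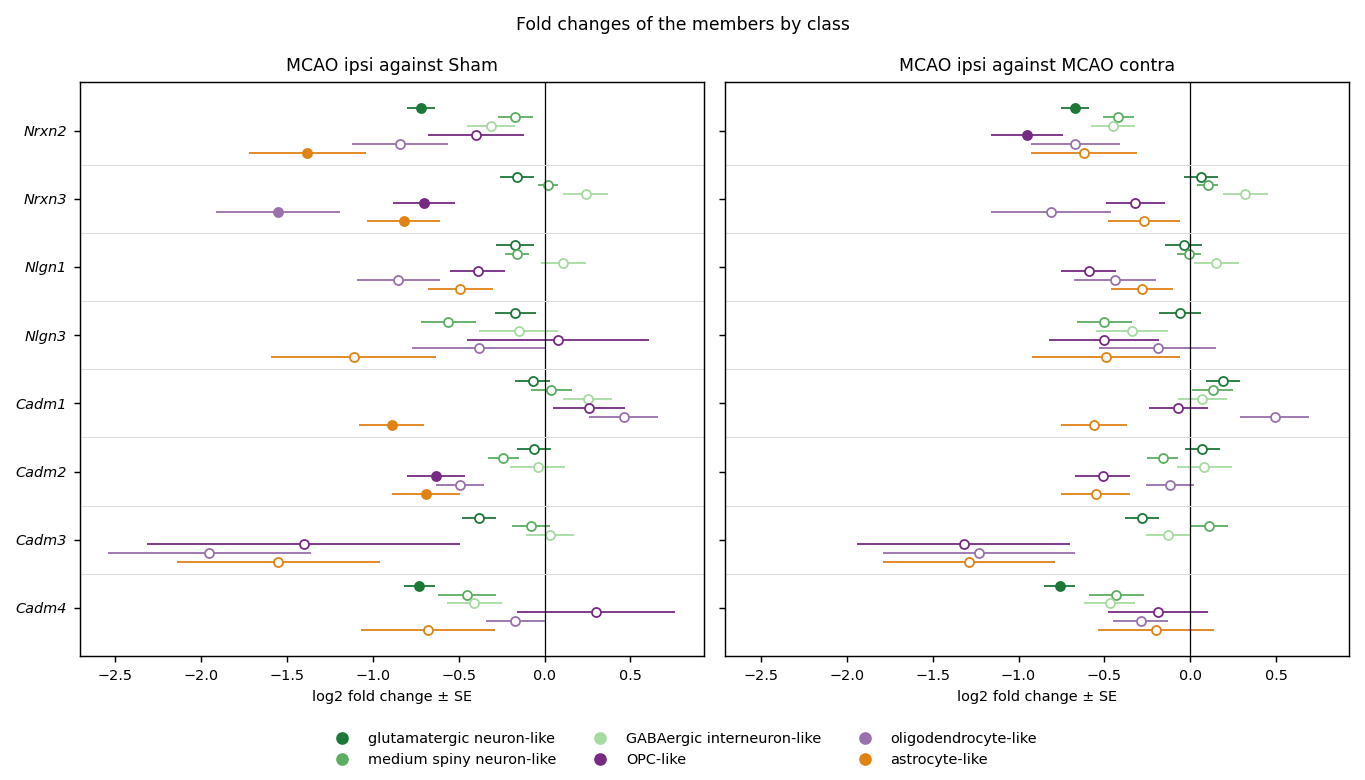
Log2 fold change of each gene with its standard error, by class, in MCAO ipsi against Sham (left) and against MCAO contra (right), with filled symbols for called pairs. The filled symbols, 9 on the left and 3 on the right, all lie below 0.

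The comparison of MCAO ipsi with MCAO contra sets the hemispheres of the same rats against each other. All infarcted hemispheres were right and all opposite ones left, so infarction and side cannot be told apart in it. Of 48 pairs 3 were called, all lower in MCAO ipsi, namely Nrxn2 and Cadm4 in glutamatergic neuron-like nuclei and Nrxn2 in OPC-like nuclei. Of all genes tested, 4.10% were called in glutamatergic, 3.71% in medium spiny and 0.0189% in GABAergic interneuron-like nuclei, and 12.5% in OPC-like, 0.0% in oligodendrocyte-like and 11.7% in astrocyte-like nuclei. In the 4 classes without a called member, 3 members each had an unadjusted p under 0.05 and DESeq2 called 0. At that p, 1222 genes rose and 1256 fell of the 11954 tested in medium spiny neuron-like nuclei. In interneuron-like nuclei 400 rose and 398 fell of 10557. In oligodendrocyte-like nuclei 708 rose and 834 fell of 9792, and in astrocyte-like nuclei 884 rose and 824 fell of 6989. The values of MCAO ipsi are those of the comparison with Sham, so both comparisons share these libraries. The count of 3 was 0 without mMCAO contra, 1 without sMCAO contra, 5 without sMCAO ipsi and 11 without mMCAO ipsi.

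Nrxn2 in glutamatergic neuron-like nuclei fell by 0.67 ± 0.08 (SE, adjusted p = 0.00498) and Cadm4 by 0.76 ± 0.09 (SE, adjusted p = 0.00533). Within the rats with moderate infarctions Nrxn2 was at 0.601 times the opposite hemisphere (95% interval 0.566 to 0.639) and within those with severe infarctions at 0.648 times (0.597 to 0.703). Cadm4 was at 0.605 times (0.550 to 0.665) and 0.562 times (0.491 to 0.643). The intervals are exact Poisson intervals and cover counting error only. Both calls were lost without mMCAO contra or without sMCAO contra, at log2 fold changes of -0.70 to -0.65 for Nrxn2 and -0.88 to -0.67 for Cadm4 and adjusted p up to 0.0794 and 0.0811.

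Neither gene was called in the other neuron classes. In medium spiny neuron-like nuclei Nrxn2 had a log2 fold change of -0.42 ± 0.09 (SE, adjusted p = 0.0136) and in interneuron-like nuclei of -0.45 ± 0.13 (SE, adjusted p = 0.407). For Nrxn2 in both classes the 2 libraries of MCAO ipsi lay below those of MCAO contra, at 67.9 and 71.5 CPM against 90.3 and 93.2 CPM and at 114 and 138 CPM against 172 and 185 CPM. Cadm4 had log2 fold changes of -0.43 ± 0.16 and -0.47 ± 0.15 (SE) in the same order, with adjusted p of 0.139 and 0.490. In medium spiny neuron-like nuclei Cadm4 was at 0.586 times the opposite hemisphere with moderate (0.440 to 0.772) and 0.964 times with severe infarctions (0.733 to 1.27).

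In OPC-like nuclei Nrxn2 was at 573 and 493 CPM in mMCAO contra and sMCAO contra and at 323 and 280 CPM in mMCAO ipsi and sMCAO ipsi. It fell by 0.95 ± 0.21 (SE, adjusted p = 0.00582), and was at 0.564 times the opposite hemisphere with moderate (0.446 to 0.711) and 0.568 times with severe infarctions (0.443 to 0.734). The fall was 1.19 after subtraction of free RNA (adjusted p = 0.0149). The call was lost without mMCAO contra and with DESeq2, over log2 fold changes of -1.07 to -0.79 without 1 library (adjusted p up to 0.0812) and adjusted p of 0.0647 with DESeq2. The Sham libraries lay on both sides of those of MCAO ipsi, at 484 CPM (43 UMIs) in Sham L and 214 CPM (11 UMIs) in Sham R. The left hemisphere was thus the higher one in Sham too, and the part of side in the fall of Nrxn2 was not tested. Against Sham its log2 fold change was -0.40 ± 0.28 (SE, adjusted p = 0.474). Nlgn1 in OPC-like nuclei, at 5735 and 5566 CPM in MCAO contra and 4471 and 3673 CPM in MCAO ipsi, passed the adjusted p (0.0201) with a log2 fold change of -0.59 ± 0.16 (SE), just short of the size required. After subtraction of free RNA it was called (-0.69, adjusted p = 0.0323).

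Cadm1 in astrocyte-like nuclei, at 1891 and 1761 CPM in MCAO contra and 1433 and 1128 CPM in MCAO ipsi, did not overlap between the hemispheres. Its log2 fold change of -0.56 ± 0.19 (SE) was not called (adjusted p = 0.0767), but was with free RNA subtracted (-0.73, adjusted p = 0.0425). The ratio to the opposite hemisphere was 0.758 with moderate (0.690 to 0.834) and 0.640 with severe infarctions (0.578 to 0.710).

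**Figure D4:**
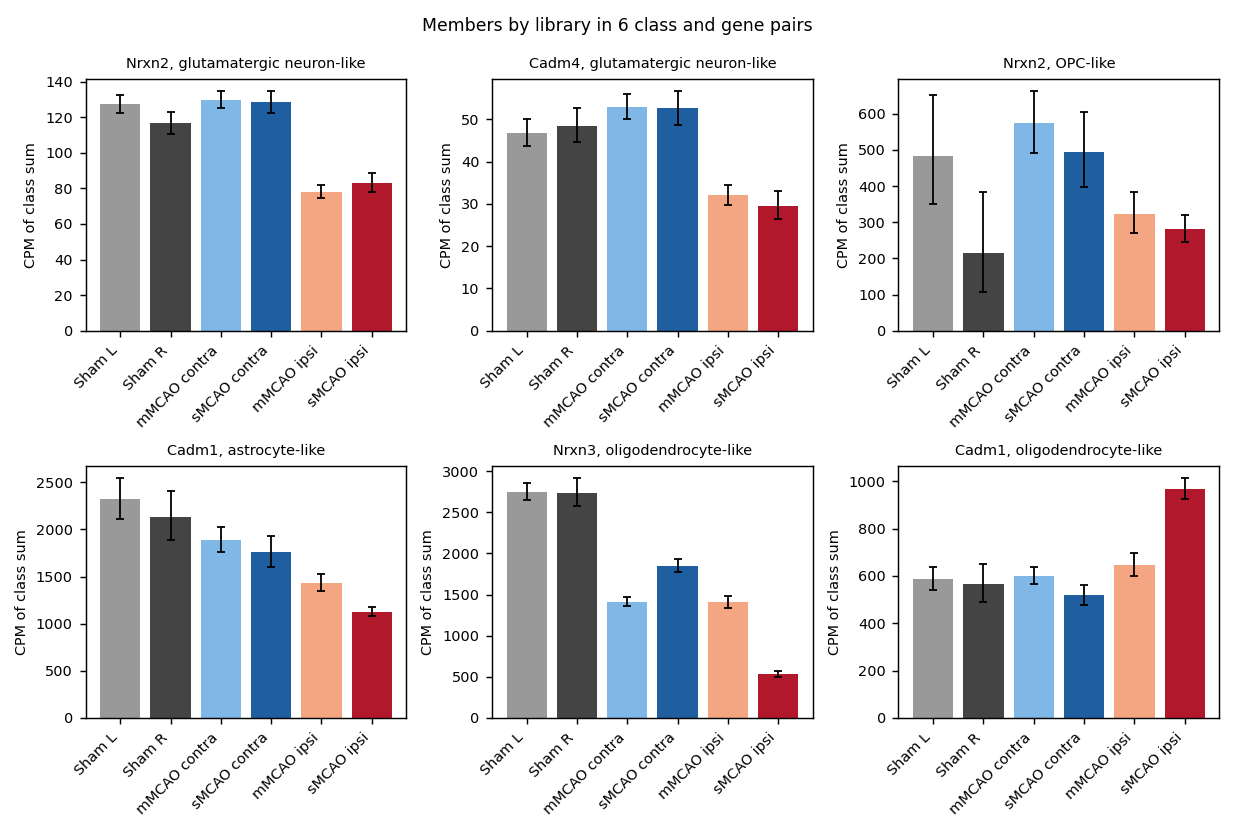
CPM of 6 pairs of gene and class in each library, with exact Poisson 95% intervals that hold counting error only. Nrxn2 and Cadm4 in glutamatergic neuron-like nuclei are lowest in both libraries of MCAO ipsi, Cadm1 in astrocyte-like nuclei steps down from Sham (2320 and 2135 CPM) to MCAO ipsi (1433 and 1128 CPM), and Cadm1 in oligodendrocyte-like nuclei is highest in sMCAO ipsi (969 CPM).

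No member was called in the comparison of MCAO contra with Sham by edgeR's quasi-likelihood test, where 6 of 48 pairs had an unadjusted p under 0.05 and DESeq2 called 0. At that p, 1095 genes rose and 1075 fell of 14680 in glutamatergic, and 737 rose and 778 fell of 11954 in medium spiny neuron-like nuclei. In interneuron-like nuclei 567 rose and 463 fell of 10557, and in OPC-like nuclei 211 rose and 181 fell of 5403. In oligodendrocyte-like nuclei 358 rose and 353 fell of 9792, and in astrocyte-like nuclei 337 rose and 314 fell of 6989. Few genes were called at all, with 0.0613% in glutamatergic, 0.201% in medium spiny and 0.0% in each of the other 4 classes. The lowest adjusted p of a member was 0.264, for Nrxn2 in medium spiny neuron-like nuclei (72.7 and 74.2 CPM in Sham, 90.3 and 93.2 CPM in MCAO contra). Nrxn3 in astrocyte-like nuclei, at 3892 and 3961 CPM in Sham and 2627 and 2886 CPM in MCAO contra, had a log2 fold change of -0.56 ± 0.21 (SE, adjusted p = 0.427). Its libraries did not overlap between the groups, and neither did the background ratio of the check genes in these nuclei. The same held for Nrxn3 in oligodendrocyte-like nuclei, at 2752 and 2741 CPM in Sham and 1414 and 1853 CPM in MCAO contra. Its log2 fold change there was -0.74 ± 0.35 (SE, adjusted p = 0.682). That pair was called with no filter on low counts and with only the 4 libraries compared. The study, which tested single nuclei, reported Nrxn3 lower against Sham in a mature oligodendrocyte cluster, both in MCAO contra and in MCAO ipsi. It described many of the falls in that cluster as subtle, because the genes were low in Sham. With free RNA subtracted the falls of Nrxn3 were larger and not called. They were -0.81 ± 0.20 (SE, adjusted p = 0.222) in astrocyte-like and -2.07 ± 0.94 (SE, adjusted p = 0.711) in oligodendrocyte-like nuclei. In OPC-like nuclei the log2 fold change went from -0.38 to -1.02 (adjusted p = 0.406).

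The effects of MCAO ipsi against Sham were then compared between glial classes, with the library as a block. Of 24 differences 3 were called, while 2.84% of all genes were called between OPC-like and astrocyte-like, 2.09% between OPC-like and oligodendrocyte-like and 3.70% between astrocyte-like and oligodendrocyte-like nuclei. Cadm1 fell in astrocyte-like nuclei relative to both others. Its log2 fold change was -0.89 in astrocyte-like nuclei, while OPC-like nuclei had 0.26 and oligodendrocyte-like nuclei 0.46. The difference was 1.24 ± 0.27 (SE, adjusted p = 0.00140) between OPC-like and astrocyte-like nuclei and -1.38 ± 0.29 (SE, adjusted p = 0.00347) between astrocyte-like and oligodendrocyte-like nuclei. With free RNA subtracted these were 2.04 (adjusted p = 0.00556) and -1.71 (adjusted p = 0.130), and with the stricter gate 1.12 (adjusted p = 0.0690) and -1.18 (adjusted p = 0.00858).

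For Nrxn3 the effects of the OPC-like and oligodendrocyte-like classes differed by 1.03 ± 0.29 (SE, adjusted p = 0.0338), and the difference was not called after subtraction of free RNA (2.35, adjusted p = 0.435). Nrxn2, the gene lowered in both glutamatergic neuron-like and astrocyte-like nuclei, had a difference of 1.04 ± 0.43 (SE) between OPC-like and astrocyte-like nuclei that was not called (adjusted p = 0.237). The effects on Cadm2 in OPC-like and astrocyte-like nuclei, called in both, differed by 0.14 ± 0.20 (SE, adjusted p = 0.847).

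Severe and moderate infarctions were each 1 library and were not tested. In infarcted hemispheres the CPM ratio between sMCAO ipsi and mMCAO ipsi had an interval that left out 1 in 28 of 48 pairs, and the ratios ran from 0.189 to 1.54. Between the Sham hemispheres 15 of 48 intervals left out 1, so the counting intervals were narrower than the difference between libraries. Cadm1 was 1.5 times higher in the severe library in oligodendrocyte-like nuclei (1.37 to 1.64), 1.47 times in medium spiny (1.38 to 1.56) and 1.45 times in interneuron-like nuclei (1.35 to 1.55), and was at 0.787 times in astrocyte-like nuclei (0.727 to 0.851). Nrxn3 in oligodendrocyte-like nuclei was at 0.379 times (0.350 to 0.411) and Nlgn1 at 0.548 times (0.508 to 0.591), where the background ratio was 5.68% in the severe and 13.5% in the moderate library. Nrxn2 in OPC-like nuclei did not differ beyond counting error (0.868 times, 0.694 to 1.09), and between Sham L and Sham R it was at 2.26 times (1.14 to 4.85) on 43 and 11 UMIs.

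Of the partners of these proteins, 23 of 26 extracellular and 8 of 9 intracellular genes were analysed (Lrrtm1, Nxph2 and Nxph3 had no entry, and Gphn was left out because its symbol marks more than a single entry). Of 31 partners 15 were called in at least 1 class in MCAO ipsi against Sham, in 20 pairs of gene and class. Extracellular partners were lower in 6 of 14 tested in astrocyte-like, 4 of 17 in oligodendrocyte-like, 2 of 18 in medium spiny, 1 of 14 in OPC-like and 1 of 21 in glutamatergic neuron-like nuclei, and 1 of those 21 was higher. Of all genes tested, 8.33% were called lower in astrocyte-like, 4.54% in oligodendrocyte-like, 2.20% in medium spiny, 3.70% in OPC-like and 2.54% in glutamatergic neuron-like nuclei, so that 1 of 14 or 1 of 21 lay near the share of all genes. In astrocyte-like nuclei their median log2 fold change was -0.73 against 0.031 over all genes. Intracellular partners were lower in 3 of 8 in glutamatergic neuron-like and 2 of 6 in astrocyte-like nuclei, and no partner was called in interneuron-like nuclei.

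In glutamatergic neuron-like nuclei Mdga1, whose protein blocks neuroligins, fell by 1.29 ± 0.16 (SE, adjusted p = 0.00444), from 23.1 and 21.1 CPM in Sham to 9.57 and 10.1 CPM in MCAO ipsi. It also fell in medium spiny neuron-like nuclei (-0.85 ± 0.24, SE, adjusted p = 0.0378). C1ql3, which codes for a secreted synaptic protein, rose by 1.58 ± 0.26 (SE, adjusted p = 0.0110), from 6.28 and 7.65 CPM to 16.6 and 29.2 CPM, with 13.4 and 19.1 CPM in MCAO contra. Epb41l3, a membrane skeleton protein that binds Cadm proteins, fell by 0.72 ± 0.13 (SE, adjusted p = 0.0139) in these nuclei. Igsf21, a binding partner of neurexin 2, fell by 1.48 ± 0.27 (SE, adjusted p = 0.00334) in medium spiny neuron-like nuclei. It was low there, at 29.05 and 27.7 CPM in Sham L and Sham R and 13.87 and 7.945 CPM in mMCAO ipsi and sMCAO ipsi. In mMCAO contra and sMCAO contra it was at 15.07 and 26.17 CPM. Glutamatergic neuron-like nuclei held 140.5 to 193 CPM of Igsf21, and free RNA was not estimated in neuron classes.

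Several partners called in glia lay near the level estimated from free neuronal RNA. In astrocyte-like nuclei Lrrtm4 fell from 1691 and 1320 CPM to 446 and 150.5 CPM (-2.47 ± 0.37, SE, adjusted p = 0.00051), but lay at 0.613 to 1.46 times the estimate from free RNA. Lrrtm3 (-2.11 ± 0.42, SE) and Epb41l3 (-2.21 ± 0.55, SE) lay at 0.545 to 1.07 and 0.777 to 1.21 times that estimate, and Nxph1 (-1.49 ± 0.29, SE) at 1.11 to 2.12 times.

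In oligodendrocyte-like nuclei Lrrtm3, Adgrl1 and Igsf21 were called lower and lay between 0.546 and 2.79 times the estimate, and of these Lrrtm3 and Adgrl1 could be tested after subtraction and were not called. The log2 fold change of Adgrl1 stayed as large (-1.82 before and -1.78 after, adjusted p = 0.33), while that of Lrrtm3 turned from -1.25 to 0.35 (adjusted p = 0.914). In OPC-like nuclei Lrrtm4, which codes for a leucine-rich neurexin ligand, fell by 1.18 ± 0.21 (SE, adjusted p = 0.00146), from 4502 and 4307 CPM in Sham to 2540 and 1523 CPM in MCAO ipsi, at 2.39 to 3.82 times the estimate. The fall was 1.40 after subtraction (adjusted p = 0.00877). Of the 13 glial partner calls, 5 held after subtraction, which was made in glia only. They include Lrrtm4 in astrocyte-like nuclei, where nothing was left in the libraries below the estimate. Of all 20 partner calls, 2 held without Sham L, 9 without Sham R and 13 without sMCAO ipsi, and 38 calls were made without mMCAO ipsi.

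Patterns were also compared over the 36 sums of 6 classes and 6 libraries, among 3844 genes with a mean of at least 50 CPM. The genes whose log2 CPM followed Nrxn2 most closely were Brinp3 (Pearson's r = 0.935) and Pcdh15 (r = 0.929), and those of Nrxn3 were Ppargc1a (r = 0.975) and Gria1 (r = 0.965). Nlgn1 went with the glutamate receptor gene Gria2 (r = 0.937) and with Ntrk3 (r = 0.935), and Nlgn3 with Helz (r = 0.896) and Tacc2 (r = 0.883). For the Cadm genes they were Pamr1 and Prodh1 for Cadm1 (r = 0.867 and 0.865), Hlf and Negr1 for Cadm2 (r = 0.894 and 0.872), Lrfn5 and Clvs2 for Cadm3 (r = 0.924 and 0.921) and Rdx and Zeb2 for Cadm4 (r = 0.861 and 0.859). The sums share libraries, depth and background, and these values are a description of likeness without a test.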

How the data were processed

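Single-nucleus RNA libraries of 6 rat hemisphere pools were analysed. The authors used Cell Ranger 7.0.0 and the mRatBN7.2 assembly on reads of a droplet-based 5' kit, counted intronic reads too, and deposited raw UMI counts per gene and nucleus. Their removal of free RNA and doublets came later and is not part of these counts. Nuclei with under 500 UMIs, with fewer than 250 or more than 5000 genes, or with over 5% mitochondrial UMIs were removed, as in the study. No doublet caller was run, and an alternative left out the 5% deepest nuclei per class and library.

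A nucleus joined a glial class with at least 3 UMIs from 2 genes of its marker list, 3 times those of every other non-neuronal list and 2 times those of Rbfox3, Snap25 and Syt1. Neurons needed 3 UMIs of the latter genes, 2 times each non-neuronal list, and at least 3 UMIs from 2 genes and 3 times the other lists for a type. These limits were set after the counts were seen, and Pde10a and Adarb2 were then left out of the gates because other classes held them. Of the markers, Pvalb, Lhfpl3, Flt1, Cldn5, Abcb1a and Foxj1, and of the check genes Snhg11, had no entry. In all, 22839 neurons of no type and 8125 nuclei of no class were not used. Myeloid-like and vascular-like nuclei were gated only to keep them out.

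UMIs were summed per class and library and tested in edgeR 4.0.16 (R 4.3.3) with TMM, filterByExpr and the quasi-likelihood F test on 3 groups of 2 libraries (3 residual degrees of freedom), with Benjamini-Hochberg adjustment per class and comparison. Standard errors were taken from the log2 fold change and the F statistic. The test of class differences had library, class and class by group terms. DESeq2 1.42.0 was an alternative, and the tests were checked on simulated counts. Free neuronal RNA was subtracted as the median ratio of the check genes times the CPM of all neuron-like nuclei. Levels, permutation tests and Poisson intervals were computed with numpy 2.4.6 and scipy 1.17.1 in Python 3.11.15. Intervals are 95% and cover counting error only.

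The members and lists were chosen with earlier results of these data known. All 8 members were named, with those partners called in MCAO ipsi against Sham (at most the 10 with the largest change) and, per member, the 2 genes of the most similar pattern. Some partners that meet this rule are not reported here. The hemispheres of a rat pool are paired, and the deviations of mMCAO contra and mMCAO ipsi from their group means correlated at -0.0932 to 0.105 over genes, by class. Sequences were not printed because no protein table was used here and the data do not bear on promoters.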

Additional observations from a re-analysis of the deposited data

Results flagged for a closer look

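In 3 cases the effect of MCAO ipsi against Sham differed between glial classes by the test of the class by group term (edgeR, Benjamini-Hochberg adjusted). For Cadm1 the log2 fold change was higher in OPC-like than in astrocyte-like nuclei by 1.24 (adjusted p = 0.00140), and it differed by -1.38 between astrocyte-like and oligodendrocyte-like nuclei (adjusted p = 0.00347). For Nrxn3 it was higher in OPC-like than in oligodendrocyte-like nuclei by 1.03 (adjusted p = 0.0338), where the level in oligodendrocyte-like nuclei was 1.04 to 1.32 times the estimate from free neuronal RNA. Groups of 2 libraries are too small for a test of single outlying libraries.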

How the results depend on the processing

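Of 9 pairs of gene and class called in MCAO ipsi against Sham, 5 were called in the fit of only the 4 libraries compared, 5 without the deepest 5% of nuclei and 4 with free neuronal RNA subtracted from glia (2 of the 7 glial pairs and both neuronal ones, which were not subtracted), and 0 to 14 without 1 library (0 without Sham L, 14 without mMCAO ipsi). For MCAO ipsi against MCAO contra, 3 pairs were called, 5 each with no filter on low counts, with no limit on neuron markers and with free RNA subtracted, and 0 to 11 without 1 library (0 without mMCAO contra, 11 without mMCAO ipsi). For MCAO contra against Sham, 0 pairs were called, 1 with no filter and 1 with only the 4 libraries compared (Nrxn3 in oligodendrocyte-like nuclei), and 0 to 1 without 1 library. Leaving out a library leaves a group with 1 library, which is then assumed to vary like the others. Of the 3 differences between glial classes, 1 was called with free RNA subtracted. Of the 20 partner calls, 12 were made with free RNA subtracted (5 of 13 in glia), and 2 to 38 without 1 library (2 without Sham L, 10 without Sham R and 38 without mMCAO ipsi), settings that were chosen after seeing the data. The cause was not tested. Over the calls of the 8 genes and the alternatives no direction reversed, 113 values kept their call and 60 lost it. Outside those calls, Nrxn3 in MCAO ipsi against MCAO contra changed direction in each glial class with free RNA subtracted. Its log2 fold change went from -0.32 to 0.80 in OPC-like and from -0.27 to 0.50 in astrocyte-like nuclei. In oligodendrocyte-like nuclei it went from -0.81 to 0.40, and none of these was called. Among the partners, Lrrtm3 in oligodendrocyte-like nuclei turned from -1.25 to 0.35 on the log2 scale with free RNA subtracted. The count of 18 neighbour pairs stayed within 1.5 times under each alternative. With the rat pool as a replicate block, the 3 calls of MCAO ipsi against MCAO contra held, and the log2 fold changes were -0.67 for Nrxn2 and -0.76 for Cadm4 in glutamatergic neuron-like and -0.93 for Nrxn2 in OPC-like nuclei. Depth limits Nlgn3, Cadm3 and Cadm4 in OPC-like nuclei most, with 2 to 6 UMIs each in Sham libraries. For both comparisons with Sham, no paired analysis was possible because Sham is a rat pool of its own.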
